A study of Homo sapiens with 12 samples.

Results

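TEX14 and the 9 genes around it on human chromosome 17 were followed in bladder cancer cells treated with CM272, 10 genes of the 22465 that had a probe set with a single gene symbol. In gene order they are TSPOAP1, SUPT4H1, RNF43, HSF5, MTMR4, SEPTIN4, TEX14, RAD51C, PPM1E and TRIM37. TEX14 was chosen by its higher level in treated RT112, so its values are given as a description with no test. The other 9 were taken as its neighbours, and how far the stretch reaches was set with earlier results of these data known. Each of the 10 genes had exactly 1 probe set with its symbol alone, and no filter on low values removed any of them.

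The cells were RT112 and 5637, established human bladder cancer lines. CM272 blocks both G9a, which methylates histone H3, and the DNA methyltransferases. The groups used were RT112 treated with CM272 at its IC50, 5637 treated with CM272 at its IC50, and RT112 left untreated (RT112 control), with 3 whole-transcript arrays of total RNA in each. All groups grew in the same serum-containing medium. How long the cells were treated is not stated in the labels, which also do not say whether replicates were separate cultures, so p-values measure only the spread between these arrays, which may be technical. Untreated 5637 arrays entered no comparison, because their transcript-cluster values correlated with those of treated 5637 at only r = 0.0274 over 67528 rows, against 0.967 over the 2995 other rows.

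TEX14 is a protein of the intercellular bridges that join dividing germ cells. In mice it holds these bridges open by binding CEP55, a component of the midbody through which somatic cells separate, and it is normally a testis transcript. Germline genes of this kind are commonly kept silent in somatic cells by promoter methylation and repressive histone marks. Along the chromosome, TEX14 and RAD51C stand head to head and are read in opposite directions. TEX14 is read from the minus strand, and so are SEPTIN4, MTMR4, HSF5, RNF43 and SUPT4H1, which lie downstream of TEX14 in its own direction of transcription. RAD51C and PPM1E are read from the plus strand, and TRIM37 from the minus strand upstream of TEX14.

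TEX14 stood at log2 levels of 13.06, 12.49 and 12.81 in the treated RT112 arrays, against 4.61, 4.52 and 4.54 in the RT112 control arrays. Treated 5637 had 14.05, 13.85 and 13.22. The treated and control groups were far apart and did not overlap. Its log2 change in RT112 was 8.23 ± 0.21 (SE, n = 3 each) as deposited, 8.79 with arrays centred on their medians and 8.67 after quantile normalization, and 2 genes of the 22465 had a higher deposited change. The control level lay below the median of the control arrays (5.07 ± 0.03, SD, n = 3). Where that level is background, the change is a lower bound. More cells with the transcript and more of it per cell cannot be told apart in these bulk samples.

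**Figure D1:**
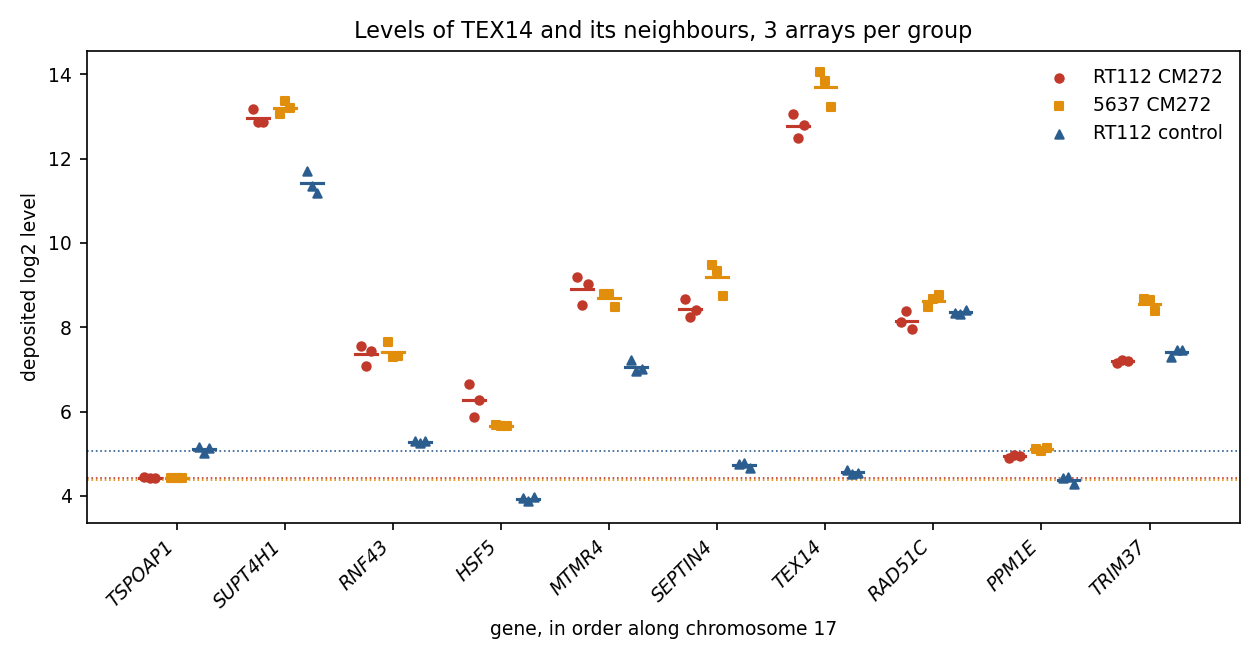
Deposited log2 levels of the 10 genes in order along the chromosome. Each point is 1 array, short bars are group means, and dotted lines are the mean array medians of the groups in the same colours. From SUPT4H1 to TEX14 and for PPM1E, all treated points of both lines lie above all RT112 control points. RAD51C, TSPOAP1 and TRIM37 do not show this. The share of all genes separated in this way was not counted.

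Genes on the TSPOAP1 side of TEX14 were higher in treated RT112 too, without a gap up to SUPT4H1. SEPTIN4, MTMR4, HSF5, RNF43 and SUPT4H1 rose by log2 1.56 to 3.71 on the deposited values. The 9 neighbours had a median log2 change of 1.56, against -0.57 for all genes, and after quantile normalization 1.68 against -0.04. On the other side of TEX14, PPM1E rose by 0.55, while RAD51C and TRIM37 had log2 changes of -0.20 and -0.22 on the deposited values.

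In all, limma called 6 of the 9 neighbours higher at adjusted p under 0.05 on the deposited values, against 10.8% of all genes. The same 6 were called higher in all 3 scalings (deposited, centred and quantile), against 10.8% of all genes. By at least 2-fold in each scaling the count was 5 of 9, against 2.86% of all genes. Lower calls on the deposited values numbered 2 of 9 (TSPOAP1 and TRIM37), against 74.2% of all genes. Neither was called lower after centring or quantile normalization, so no neighbour was lower in all 3 scalings, against 32.4%.

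**Figure D2:**
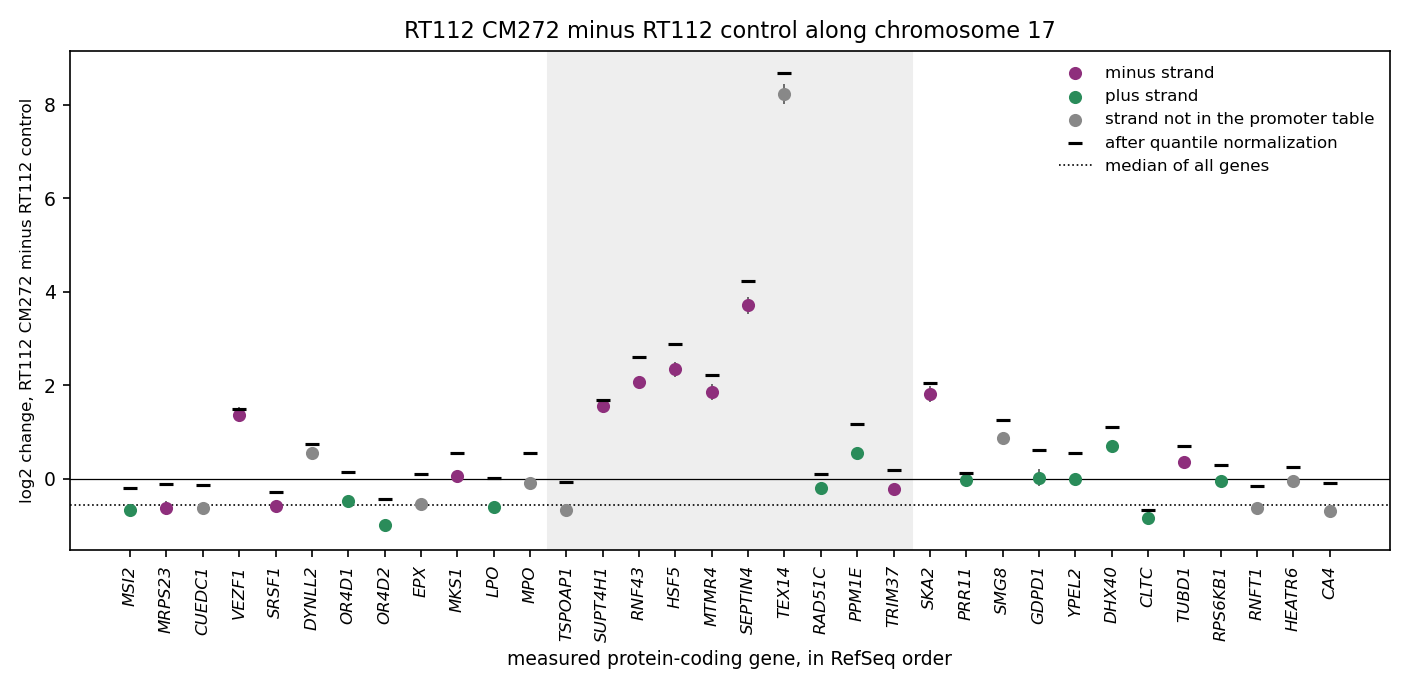
Log2 change in RT112 (CM272 minus control, with SE from limma) of the 10 genes (grey band) and the 12 measured protein-coding genes on each side, in RefSeq gene order. Colours give the strand where the RefSeq promoter table lists it, black dashes the change after quantile normalization, and the dotted line the median of all genes. SEPTIN4 to SUPT4H1 form a shoulder on 1 side of TEX14, between 1.56 and 3.71.

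SEPTIN4, the nearest gene downstream of TEX14, encodes a septin GTPase needed for the sperm annulus, with a splice form (ARTS) that promotes apoptosis. It had log2 levels of 8.67, 8.23 and 8.41 in treated RT112 and 9.47, 9.33 and 8.74 in treated 5637, against 4.75, 4.78 and 4.65 in RT112 control. It rose by 3.71 ± 0.19 in RT112 (SE; adjusted p = 3.22e-07, limma), and by 4.24 after quantile normalization. Its control level lay below the array median, so that size too is a lower bound where the level is background. A second probe set bears the symbol C17orf47, an older name that RefSeq now lists under SEPTIN4. It lies outside the membership rule and was picked after its values were seen, so it was not tested here. Its levels were 11.88, 10.95 and 11.23 in treated RT112 and 12.95, 12.70 and 12.00 in treated 5637, against 4.41, 4.62 and 4.29 in RT112 control. Its log2 change was 6.91, from a control level that also lay below the array median. Of 11 other measured septins, 2 rose and 5 fell in all 3 scalings. Their median was -0.49 as deposited and -0.16 after quantile normalization. By that rule 10.8% of all genes rose and 32.4% fell, with medians of -0.57 and -0.04. These are the comparison for the families below too.

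MTMR4, an early-endosome lipid phosphatase of the myotubularin family, had 9.18, 8.52 and 9.02 in treated RT112 and 8.79, 8.79 and 8.49 in treated 5637, against 7.21, 6.97 and 7.01 in RT112 control. It was already expressed without treatment and rose by 1.85 ± 0.17 (adjusted p = 1.09e-05, limma). Of 11 other myotubularins 2 rose and 2 fell, with a median of -0.31 as deposited and 0.17 after quantile normalization.

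HSF5 encodes a heat shock factor of the male germ line, needed in mice for spermatocytes to pass through meiosis. Its levels were 6.66, 5.87 and 6.27 in treated RT112 and 5.67, 5.67 and 5.65 in treated 5637, against 3.95, 3.87 and 3.97 in RT112 control. HSF5 rose by 2.34 ± 0.17 (adjusted p = 2.25e-06, limma). Its control level lay below the array median, and if that is background, the size is only a lower limit. The same holds for PPM1E. Of the other heat shock factors listed, HSF1 alone was measured. Its log2 change was -0.17 ± 0.10 as deposited (adjusted p = 0.157, limma) and 0.31 after quantile normalization (adjusted p = 0.0306).

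RNF43, a ubiquitin ligase that removes WNT receptors from the cell surface, had 7.55, 7.07 and 7.44 in treated RT112 and 7.65, 7.30 and 7.31 in treated 5637, against 5.30, 5.25 and 5.31 in RT112 control. It rose by 2.07 ± 0.14 (adjusted p = 1.41e-06, limma). Of 11 other WNT receptor and feedback genes 1 rose and 3 fell in all 3 scalings, and the receptor gene FZD6 changed most among those named by rule, at -2.83 ± 0.13 (adjusted p = 1.83e-07, limma).

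SUPT4H1, the far end of the block, encodes the SPT4 subunit of the elongation factor DSIF. It was bright in every array, at 13.18, 12.87 and 12.87 in treated RT112 and 13.05, 13.37 and 13.21 in treated 5637, against 11.71, 11.35 and 11.18 in RT112 control. It rose by 1.56 ± 0.15 (adjusted p = 1.47e-05, limma). Among 6 other measured elongation factors 3 rose and 2 fell in all 3 scalings. SUPT5H, its partner in DSIF, rose by 1.17 ± 0.06 (adjusted p = 3.1e-07, limma), and SSRP1, a subunit of the histone chaperone FACT, fell by 1.32 ± 0.06 (adjusted p = 1.53e-07, limma).

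TSPOAP1, next beyond SUPT4H1 and a RIM-binding protein of synapses, did not share the rise. It had 4.44, 4.42 and 4.43 in treated RT112 and 4.42 in each treated 5637 array, with an SD of 0, against 5.15, 5.02 and 5.13 in RT112 control. Its log2 change was -0.67 ± 0.04 on the deposited values (adjusted p = 1.17e-06, limma), near the median of all genes, and -0.06 after quantile normalization (adjusted p = 0.281). Of 4 other genes of RIM-binding proteins and of TSPO, 2 fell in all 3 scalings and the others were not called alike.

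On the opposite side, RAD51C encodes a protein of DNA repair by homologous recombination. It had 8.12, 8.39 and 7.95 in treated RT112 and 8.47, 8.66 and 8.76 in treated 5637, against 8.34, 8.30 and 8.42 in RT112 control. Treated and control RT112 overlapped. The change was -0.20 ± 0.11 (adjusted p = 0.139, limma) on the deposited values, 0.11 after quantile normalization (adjusted p = 0.374) and 0.36 after centring (adjusted p = 0.0234). Without treated RT112 replicate 2 it was -0.31 (adjusted p = 0.0163). Its sign therefore depended on the scaling.

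PPM1E, a protein phosphatase that acts on AMPK and on CaM kinases, was dim throughout, at 4.90, 4.96 and 4.94 in treated RT112 and 5.10, 5.07 and 5.14 in treated 5637, against 4.43, 4.44 and 4.29 in RT112 control. It rose by 0.55 ± 0.05 on the deposited values (adjusted p = 1.07e-05, limma) and by 1.18 after quantile normalization. Of 10 other PPM phosphatases 2 rose and 3 fell, with a median of -0.33 as deposited and 0.29 after quantile normalization.

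TRIM37, a ubiquitin ligase that restrains centrosome assembly, had 7.14, 7.23 and 7.20 in treated RT112 and 8.66, 8.63 and 8.38 in treated 5637, against 7.29, 7.46 and 7.46 in RT112 control. Its change was -0.22 ± 0.08 on the deposited values (adjusted p = 0.0344, limma) and 0.34 after centring (adjusted p = 0.00614), so that its sign too depended on the scaling. Of 9 other genes of centriole duplication and its checkpoint, 5 fell in all 3 scalings and the others were not called alike.

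**Figure D3:**
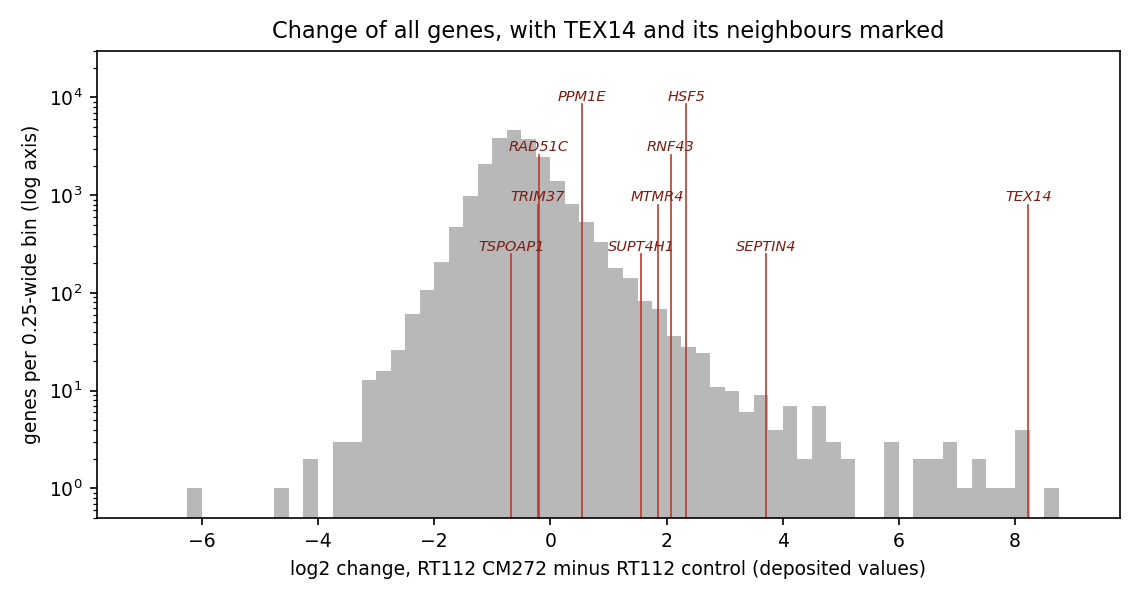
Log2 change in RT112 (CM272 minus control, deposited values) of 22465 genes in bins 0.25 wide, with the number of genes on a log axis and the 10 genes marked by red lines of arbitrary height. TEX14 at 8.23 and SEPTIN4 at 3.71 lie in the far right tail, and TSPOAP1 at -0.67 lies beside the median of -0.57.

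Of 18 measured genes of meiosis and germ-cell identity, 5 fell in all 3 scalings and the others were not called alike. For this and the other role lists, the shares of all genes called alike in all 3 scalings were 10.8% higher and 32.4% lower. The list had a median of -0.55 as deposited, near that of all genes, and of 0.05 with quantile normalization. The cohesin gene STAG3 fell by 0.88 ± 0.04 (adjusted p = 1.33e-07, limma) and the meiosis gene TEX11 fell by 0.85 ± 0.04 (adjusted p = 2.69e-07, limma), STAG3 at a mean of 5.00 in treated RT112 against 5.88 in RT112 control, and TEX11 at 3.79 against 4.64. After quantile normalization the changes were -0.35 for STAG3 and -0.23 for TEX11. TEX19, picked after its values were seen as the 1 gene of the list lower by at least 2-fold in all 3 scalings, fell by 1.64 as deposited and by 1.06 after quantile normalization. Of the 12 measured genes of the midbody and the intercellular bridge, 4 rose and 1 fell in all 3 scalings. CEP55, the binding partner of TEX14, had mean levels of 7.81 in treated RT112 and 6.56 in treated 5637, against 7.98 in RT112 control, a log2 change of -0.17 ± 0.14 (adjusted p = 0.29, limma) as deposited, 0.39 after centring and 0.18 after quantile normalization. KIF20A, a midbody kinesin, rose by 0.61 ± 0.05 (adjusted p = 7.62e-06, limma), and the ESCRT gene CHMP4B rose by 0.96 ± 0.10 (adjusted p = 2.37e-05, limma).

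Epithelial markers lay above the array medians, as the labelled cell type has them. The 7 ranged between 6.65 and 13.88 in RT112 control, with KRT8 at 12.93 in treated RT112, 12.42 in treated 5637 and 11.25 in RT112 control. In all 3 scalings 4 of the 7 rose in RT112, KRT8 among them, and 2 fell, among them KRT19 with a log2 change of -1.84. By that rule 10.8% of all genes rose and 32.4% fell, which is the comparison for the marker lists below too. Of 4 measured urothelial markers 1 rose and 2 fell. KRT8 and KRT19 were picked after their values were seen. The 7 germ-cell markers (DDX4, DAZL, PRM1, PRM2, TNP1, SYCP3 and BOLL) lay mostly below the array medians. Those medians were 4.43 in treated RT112, 4.38 in treated 5637 and 5.07 in RT112 control. The markers ranged over 3.31 to 4.68 in treated RT112 and 3.30 to 4.71 in treated 5637, against 4.34 to 5.13 in RT112 control. In all 3 scalings 1 was called higher and 2 lower. The medians of 5 leukocyte markers were 4.42, 4.35 and 4.55 and those of 6 fibroblast and endothelial markers 4.43, 4.15 and 4.83, in treated RT112, treated 5637 and RT112 control.

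Promoter windows from RefSeq (GRCh38.p14) were matched for 8 of the 10 genes, and TEX14 and TSPOAP1 were not matched. The 250 bases before the start are shown for 3 of them because they set a CG-rich and a CG-poor gene of the block beside RAD51C, which was not called. CG dinucleotides, the sites of DNA methylation, are in capitals, and each sequence runs 5′ to 3′ on the strand of its gene.
SEPTIN4 promoter, chr17:58532061-58532310 (- strand): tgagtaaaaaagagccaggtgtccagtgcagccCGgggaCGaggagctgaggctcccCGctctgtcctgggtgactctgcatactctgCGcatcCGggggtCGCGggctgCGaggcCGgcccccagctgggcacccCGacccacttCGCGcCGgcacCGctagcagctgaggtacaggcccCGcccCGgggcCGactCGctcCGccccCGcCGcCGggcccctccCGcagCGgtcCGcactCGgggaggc
RNF43 promoter, chr17:58417535-58417784 (- strand): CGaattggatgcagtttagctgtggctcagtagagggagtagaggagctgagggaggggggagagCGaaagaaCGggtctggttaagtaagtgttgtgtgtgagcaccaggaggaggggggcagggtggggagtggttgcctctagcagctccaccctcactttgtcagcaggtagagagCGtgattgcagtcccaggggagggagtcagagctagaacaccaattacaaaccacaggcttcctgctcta
RAD51C promoter, chr17:58692323-58692572 (+ strand): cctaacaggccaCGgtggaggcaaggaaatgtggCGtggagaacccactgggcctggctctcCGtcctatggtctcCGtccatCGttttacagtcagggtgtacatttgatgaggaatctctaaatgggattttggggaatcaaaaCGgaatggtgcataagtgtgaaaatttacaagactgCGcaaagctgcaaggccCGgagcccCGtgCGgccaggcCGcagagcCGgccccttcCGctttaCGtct

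The SEPTIN4 window, the first of 4 listed for the gene, held 26 CG. The other 3 SEPTIN4 windows held 1, 1 and 3. RNF43 held 4 CG in the window shown and 0 in its other one, while HSF5 held 26, MTMR4 20 and SUPT4H1 29. The RAD51C window held 14 and its second one 18, and the median of 27305 promoters of the same length was 11. The 5 tested genes that rose by at least 2-fold thus ran from CG-poor to CG-rich windows. On both strands TCCCGC was found in the first window of SUPT4H1, HSF5, MTMR4, SEPTIN4, PPM1E and TRIM37 and in 23.5% of all promoters, and CCGGAAG in that of SUPT4H1, 2 times, and in 8.82% of all promoters. CACGTG, TGACGTCA and TGANTCA were in no first window of these genes. TGACGTCA was in the second window of RAD51C, CACGTG and TGANTCA in the fourth of SEPTIN4, and TGANTCA in the second of RNF43. They were in 6.49%, 1.77% and 6.60% of all promoters. TCCCGC and CCGGAAG each contain a CG, so these counts overlap.

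Outside the 10 genes the block did not go on evenly. Of the 12 measured protein-coding genes beyond TSPOAP1, 2 rose and 1 fell in all 3 scalings, and the median was -0.56. MPO, next to TSPOAP1 and coding for the myeloperoxidase of neutrophils, had a log2 change of -0.08 ± 0.07 (adjusted p = 0.317, limma) as deposited but of 0.48 after centring and 0.54 after quantile normalization, so that its sign turned with the scaling. Farther out, VEZF1 rose by 1.37 ± 0.16 (adjusted p = 6.45e-05, limma). Of the 12 beyond TRIM37, 4 rose and 1 fell, with a median of -0.02. For comparison with both sides, 10.8% of all genes were higher and 32.4% lower in all 3 scalings, with a median of -0.57. SKA2, which is next to TRIM37 and codes for a kinetochore protein, rose by 1.82 ± 0.17 (adjusted p = 1.26e-05, limma). Within the span, the other probe sets with 1 symbol were picked after their values were seen and carry no test: TSPOAP1-AS1 had a log2 change of -0.49, MIR142 of -0.52 and MIR4736 of 0.66.

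Within treated RT112 the replicates kept a similar order across the block. There, replicate 1 was the highest for all 6 genes from SUPT4H1 to TEX14, and replicate 2 was the lowest for 5 of these 6 and tied with replicate 3 for SUPT4H1. Replicate 2 deviated from its group mean by -0.30 for TEX14, -0.39 for MTMR4 and -0.40 for HSF5, but by 0.24 for RAD51C. Over all 14981 genes without ties, replicate 2 was the lowest for 34.7%. How often replicate 1 was the highest over all genes was not counted, so that count has no such comparison. The same order was also seen outside the block, in genes picked for a pattern like that of TEX14. RND1 on chromosome 12 had 11.09, 10.29 and 10.82, and USP17L1P on chromosome 8 had 12.45, 12.07 and 12.39. POLR2A had 14.91, 14.71 and 14.88, while H2AC6 was highest in replicate 3 (10.37, 10.37 and 10.76). In treated 5637 the order across the block was less uniform, with HSF5 between -0.012 and 0.0093 of its mean and SUPT4H1 highest in replicate 2. Replicate 3 was the lowest for 4 of the 6 genes, deviating by -0.49 for TEX14 and -0.44 for SEPTIN4, and was the lowest for 33.3% of 14281 genes. In RT112 control, replicate 2 was the lowest for 4 of the 6, at -0.10 for MTMR4 and less far for the rest, and for 30.7% of 22438 genes.

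**Figure D4:**
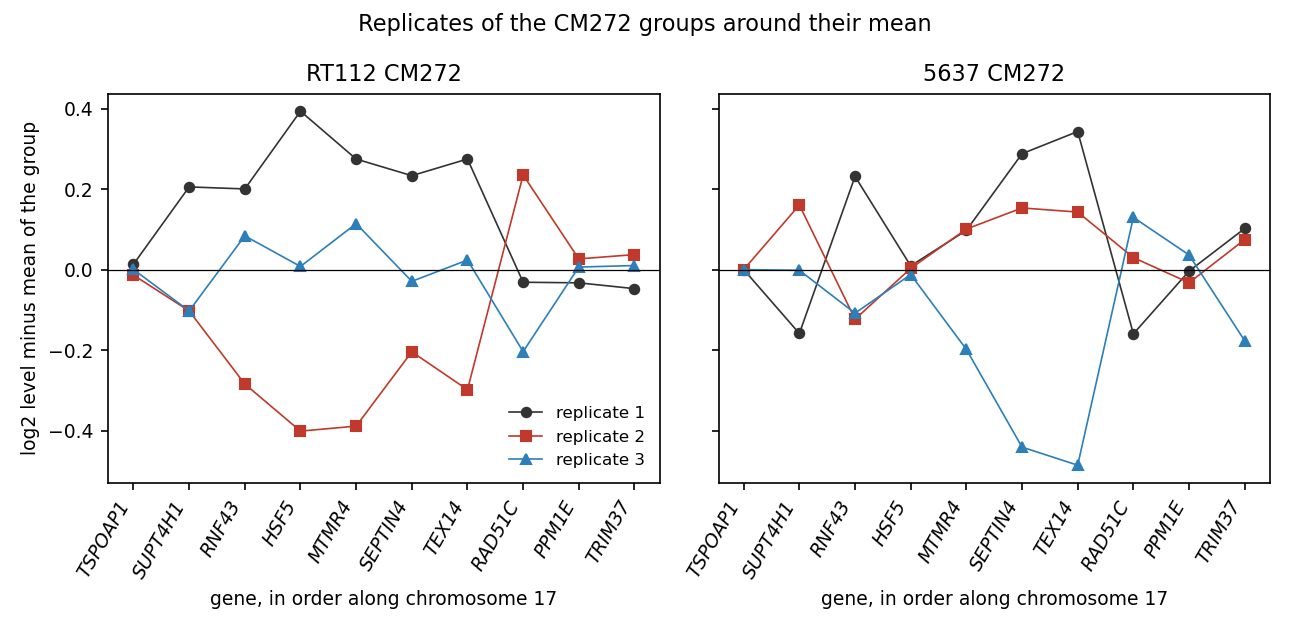
Log2 level of each CM272 array minus the mean of its group, for the 10 genes in chromosome order, with RT112 on the left and 5637 on the right. Lines join the genes of 1 replicate. In RT112 the lines stay apart from RNF43 to TEX14 and cross at RAD51C, where replicate 2 is 0.24 above the mean.

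Treated 5637 was set against treated RT112 to see how far the levels differ between lines under the compound. Both comparisons share the treated RT112 arrays. Without usable untreated 5637 arrays, a line difference present before treatment and one that arose with it cannot be told apart. TEX14 was higher in treated 5637 by a log2 difference of 0.92 ± 0.21, with no overlap between 13.22 to 14.05 in 5637 and 12.49 to 13.06 in RT112, and C17orf47 was higher by 1.20. Neither was tested.

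Of the 9 neighbours, limma called 4 higher in treated 5637 on the deposited values, against 17.1% of all genes, and 3 in all 3 scalings (SEPTIN4, RAD51C and TRIM37), against 14.9%. At least 2-fold higher in each scaling was 1 of 9, TRIM37, against 3.66%. HSF5 was the 1 gene of the 9 called lower, on the deposited values against 15.8% of all genes and in all 3 scalings against 15.2%. TRIM37 was higher by 1.37 ± 0.08 (adjusted p = 4.55e-06, limma), at 8.56 ± 0.15 in treated 5637 and 7.19 ± 0.04 in treated RT112 (SD, n = 3). SEPTIN4 was higher by 0.74 ± 0.19 (adjusted p = 0.0146) and RAD51C by 0.47 ± 0.11 (adjusted p = 0.0126), while HSF5 was lower, at 5.66 ± 0.01 in treated 5637 and 6.27 ± 0.40 in treated RT112, a log2 difference of -0.60 ± 0.17 (adjusted p = 0.0223, limma). In a fit of the 6 treated arrays alone, 2 of 9 were called higher and 0 lower, with adjusted p = 0.078 for SEPTIN4, 0.0642 for RAD51C and 0.0998 for HSF5. SUPT4H1, RNF43, MTMR4 and TSPOAP1 overlapped between the lines, with differences from -0.22 to 0.24.

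**Figure D5:**
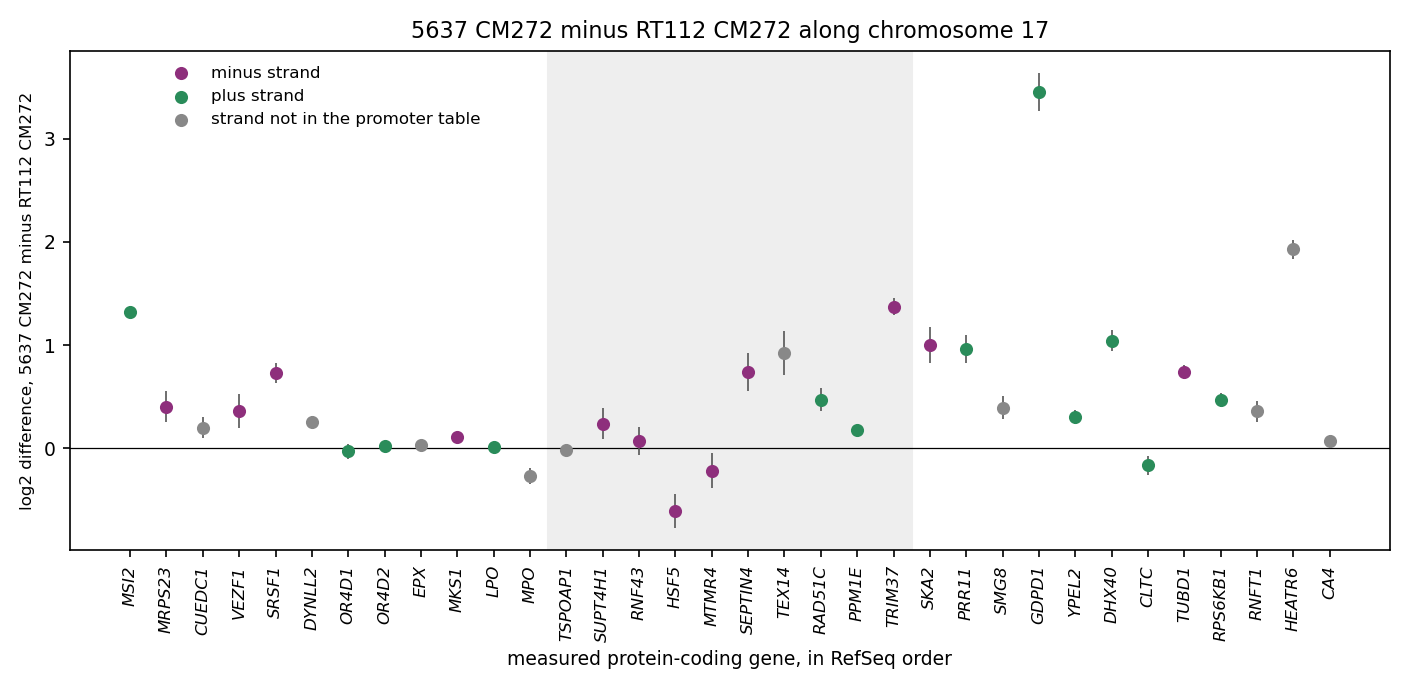
Log2 difference between treated lines (5637 CM272 minus RT112 CM272, deposited values, with SE from limma) for the 10 genes (grey band) and 12 measured protein-coding genes on each side. Of the 12 genes beyond TRIM37, 9 were called higher in 5637 in all 3 scalings. Between SUPT4H1 and TEX14 the differences run from -0.60 to 0.92.

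Beyond TRIM37, 9 of 12 genes were higher and 0 lower in treated 5637 in all 3 scalings, and beyond TSPOAP1 3 of 12 were higher and 1 lower. Of all genes, 14.9% were higher and 15.2% lower by that rule.

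Among 158 protein-coding genes whose level varied by at least 4 log2 units over the 9 arrays, the 5 whose pattern was most like that of TEX14 were POLR2A (Pearson's r = 0.997), SEPTIN4 (0.997), RND1 (0.996), H2AC6 (0.996) and USP17L1P (0.996). The points share 3 groups of arrays, so a high r says mainly that both treated groups stand apart from RT112 control, and no p is given. POLR2A, which encodes the largest subunit of RNA polymerase II, had means of 14.84 in treated RT112 and 15.69 in treated 5637, against 10.32 in RT112 control. SEPTIN4 was the 1 gene of these 5 from the neighbourhood of TEX14, but no other neighbour varied by 4 log2 units. The next widest range was that of HSF5, at 2.79, so no other neighbour could have been listed. Over the same arrays r with TEX14 was 0.992 for RNF43, 0.978 for SUPT4H1, 0.964 for MTMR4 and 0.930 for HSF5, and on the other side of TEX14 0.974 for PPM1E, 0.449 for TRIM37 and 0.132 for RAD51C. For TSPOAP1 it was -0.989, over a range of only 0.73. These r use the deposited values, on which the change of TSPOAP1 in RT112 (-0.67) lay near the median of all genes (-0.57). After quantile normalization that change was -0.06.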

How the data were processed

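Whole-transcript Affymetrix arrays measured total RNA. Per the submitters' processing notes the authors used RMA in Affymetrix Expression Console, and the deposited values are on a log2 scale (70523 probe sets, 12 arrays). The highest value in the 9 arrays was 19.93, which is high for RMA of scanner signals. Whether the values were transformed further is not stated, so sizes hold for the deposited scale. No version or array build is named, so no coordinates of genes or probe sets are given, and promoter windows carry those of RefSeq's own build. The platform annotation gave 23781 probe sets 1 symbol, 1543 several and 45199 none, and a gene's brightest was used. RefSeq's gene table (GRCh38.p14) matched 22410 of 22465 genes and gave their order.

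Genes were fitted with limma 3.58.1 (R 4.3.3) over 9 arrays in 3 groups, with Benjamini-Hochberg adjustment over all 22465 at 0.05. The number of arrays limits the precision. Equal values in all 3 replicates occurred for 12.1% of genes in treated RT112 and 15.3% in treated 5637, against 0% in RT112 control. Processing that differed between treated and control arrays cannot be told apart from treatment. A listed gene is said to have risen or fallen where deposited, median-centred and quantile-normalized values were all called alike.

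The members and lists were chosen with earlier results of these data known. Named are all 10 members, the genes next to them and those of the 12 on each side that changed at least 2-fold in all scalings, the 5 genes most like TEX14, and up to 2 per role list by adjusted p (not all printed, and 1 list is not reported here). HSF1, CEP55 and the other probe sets within the span were added after their values were seen. Alternatives were the scaling, the probe set, 2 filters, an intensity trend, 6 arrays, a replicate block and leaving out each array.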

Additional observations from a re-analysis of the deposited data

How the results depend on the processing

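Over the 9 neighbours, the number called higher in treated RT112 than in RT112 control stayed between 5 and 8 in every alternative, and was 6 without each array in turn. SEPTIN4, HSF5, RNF43, MTMR4 and SUPT4H1 kept their calls throughout. PPM1E kept its call in every fit that held it, and the count of 5 came from the median-level filter, which removed it. The number called lower was 2 on the deposited values, 0 after centring, 0 after quantile normalization, 1 with only genes above the median level, 1 without genes of equal replicates, 1 with the replicate block and 1 to 2 without each array. These lower calls were TSPOAP1 and TRIM37, except without treated RT112 replicate 2, where they were TSPOAP1 and RAD51C. The filter on the median level removed TSPOAP1 and PPM1E from the fit, and the filter on equal replicates removed TSPOAP1. With the replicate block TRIM37 had adjusted p = 0.0517, and it lost its call without each treated RT112 replicate or control replicate 2 or 3 (0.0527 to 0.103). Same-numbered arrays did not deviate together (r between -0.0889 and 0.0391), and differently numbered arrays had r between -0.1219 and 0.1221. The numbers thus showed no sign of pairing, but these r cannot tell whether the cultures were paired. RAD51C turned from -0.20 to 0.36 after centring and to 0.11 after quantile normalization, and TRIM37 from -0.22 to 0.34 and to 0.19.

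In treated 5637 against treated RT112, 4 neighbours were called higher and 1 lower, 2 and 0 with the 6 arrays alone, and 2 to 4 and 0 to 2 without each array. HSF5 lost its call without treated RT112 replicate 3 and without each treated 5637 replicate (adjusted p up to 0.0601), and SEPTIN4 without treated RT112 replicate 2 or treated 5637 replicate 2 (0.0523 and 0.0551). RNF43 ranged from -0.0738 to 0.17 without each array (-0.0738 without treated RT112 replicate 2 and -0.0475 without treated 5637 replicate 1), against 0.0683 with all. MTMR4 was called lower without treated RT112 replicate 2 (-0.41). PPM1E lost its call with the replicate block (adjusted p = 0.0666) and after both other scalings (0.0715 and 0.0689). It also lost its call without each treated RT112 replicate and without treated 5637 replicate 1 or 3 (adjusted p from 0.05001 to 0.0946, limma). The replicate block changed no other member's call.

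Of all genes, 2433 were called higher and 16660 lower in RT112 on the deposited values, 7608 and 7814 after centring, and 7017 and 8351 after quantile normalization. With the dim-gene filter 8958 of 13442 were called lower. The causes of these differences were not tested.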

Other observations

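The measured protein-coding genes were put in RefSeq order, 17154 in all, of which 541 were higher by at least 2-fold in all 3 scalings. Runs of at least 4 such genes with no other measured protein-coding gene between them numbered 6, under a rule set after the values were seen. The run from SUPT4H1 to TEX14 held 6 genes with log2 changes of 1.56 to 8.23. TEX14 was chosen for its rise, and without it the run holds 5 genes, as many as each of the next runs. The others were 5 USP17-like genes on chromosome 4 (USP17L12 to USP17L21), 5 histone genes from H4C3 to H2BC5 on chromosome 6, 4 histone genes on chromosome 1, HLA-C, HLA-B, MICA and MICB on chromosome 6, and RAET1G, ULBP2, ULBP1 and RAET1L on chromosome 6. Those 5 runs each consist of related genes, while SUPT4H1, RNF43, HSF5, MTMR4, SEPTIN4 and TEX14 belong to different families. Below the cut of 4 genes lay 1 run of 3 and 23 runs of 2. The run of 3 was RNF114, SNAI1 and UBE2V1 on chromosome 20 (log2 changes of 1.30 to 4.55), also of different families.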
